A study of Homo sapiens with 4 samples.

Results

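The genes described are 52 of the 46427 genes in the expression tables. They encode the proteins of blood coagulation, of its inhibitors, of clot dissolution (fibrinolysis) and of the complement system. They were chosen from a list of gene names, with no threshold on their values. All 52 were found in the tables, each on a single line. They fall into 11 groups by role, and 46 of them encode proteins secreted into plasma while 6 encode proteins held at the cell surface.

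RNA sequencing was carried out on Huh7 and HepG2, both established human liver cancer lines that the study used as hepatocellular carcinoma (HCC) cells. Each line received 20 nM siRNA for 5 h and was harvested at 48 h. The siRNA was either COP1-siRNA, directed at COP1, a ubiquitin ligase that marks proteins for degradation, or the negative control NC-siRNA. There was 1 library for each line and siRNA, 4 in all, so differences could not be held against a spread between replicates, and p-values were not computed. The groups were thus Huh7 with NC-siRNA, Huh7 with COP1-siRNA, HepG2 with NC-siRNA and HepG2 with COP1-siRNA, and what they shared was the transfection itself and the absence of any untransfected culture among the libraries analysed.

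Most proteins of both cascades are made by hepatocytes and circulate as inactive precursors. In coagulation, tissue factor on a cell surface or the contact factors in plasma start a chain of proteases that ends in thrombin, which cuts fibrinogen into fibrin, while plasmin later dissolves the clot. In complement, the classical, lectin and alternative pathways converge on C3, from which the terminal proteins C5 to C9 assemble a pore in target membranes, and soluble and membrane-bound regulators protect the host's own cells.

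Levels are in TPM, the share of all transcripts scaled to a fixed total and allowing for gene length, so genes can be set beside each other. Differences are in log2(TPM + 1), which understates the change of genes with a low level, and "2-fold" means at least 1 unit on that scale. A gene entered a comparison when either of the libraries compared had 1 TPM or more. The TPM of COP1 was 19.7 with NC-siRNA and 6.18 with COP1-siRNA in Huh7, and 26.9 and 16.1 in HepG2, so that 31.4% and 59.9% of the control level was left. All 8 hepatocyte markers listed, albumin among them, had a TPM of at least 1 in every library, and PTPRC, STAB2 and DCN, which mark leukocytes, sinusoidal endothelium and fibroblasts, were listed at 0 in every library. Other genes on those lists were present, with LYZ at 119 to 192 TPM and CD68 at 15.6 to 58.2 TPM across the libraries. In Huh7 with NC-siRNA and COP1-siRNA, CD14 had 4.47 and 2.24 TPM and PECAM1 had 5.08 and 7.36 TPM. COL1A1 had 2.33 and 2.47 TPM in HepG2. The remaining genes on the lists, CDH5, KDR, COL1A2 and PDGFRB, stayed under 1 TPM in every library. The number of reads is unknown, and the ratio of coverage to FPKM gave depths of 1 to 1.29 relative to the shallowest library.

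The largest share of the transcripts of these genes came from fibrinogen in Huh7 and not in HepG2. The 52 genes together held 9800 and 9421 TPM in Huh7 with NC-siRNA and COP1-siRNA, and 676 and 857 TPM in HepG2. The sum was 14.5 times as high in Huh7 as in HepG2 with NC-siRNA and 11 times as high with COP1-siRNA. The 3 fibrinogen genes made up 62.3% and 63.8% of the sum in Huh7 and 8.94% and 15% in HepG2. Without them, the sum was still 6.01 times and 4.68 times as high in Huh7. In such bulk samples, fewer cells that express a gene and less RNA per cell cannot be told apart.

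At least 1 TPM was found for 44 members in each Huh7 library, for 40 in HepG2 with NC-siRNA and for 41 in HepG2 with COP1-siRNA, and 37 members reached it in all 4 libraries. F9, PLG, THBD, C6 and C9 stayed under 1 TPM in every library. F9, the vitamin K-dependent factor IX that is lacking in haemophilia B, was listed at 0 in all 4. PLG, the plasmin precursor, was listed at 0 in 3 libraries and at 0.0608 TPM in HepG2 with COP1-siRNA. THBD, thrombomodulin, is known mainly from endothelium and was listed at 0 in both Huh7 libraries and at 0.708 and 0.552 TPM in those of HepG2.

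**Figure D1:**
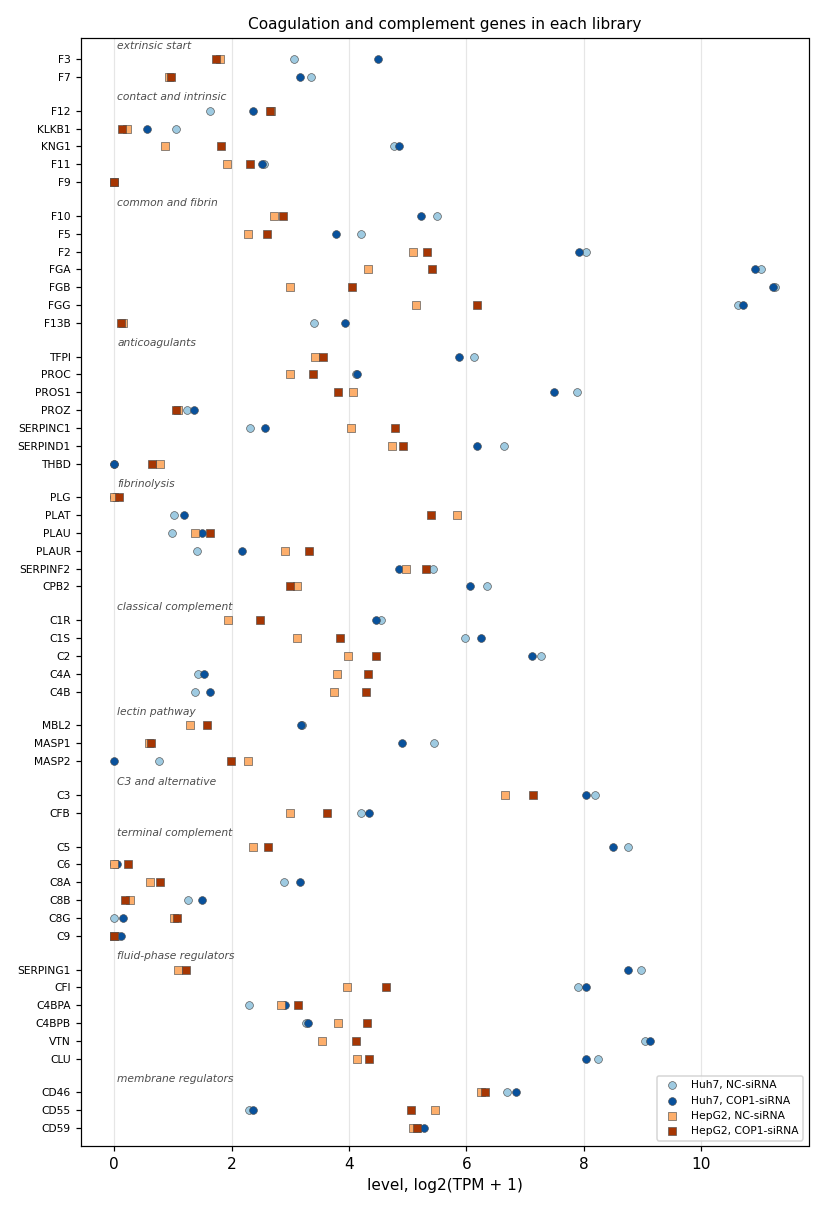
The level of each of the 52 genes is plotted in each library as log2(TPM + 1), with Huh7 as circles and HepG2 as squares, NC-siRNA in the pale and COP1-siRNA in the dark shade, and the genes ordered by role. The circles of FGA, FGB and FGG lie above 10, to the right of all other members, and the circles of PLAT and CD55 lie well to the left of their squares.

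With NC-siRNA, 28 of the 47 members tested were at least 2-fold higher in Huh7 than in HepG2, where 14.7% of all 15055 genes tested were, and 9 were at least 2-fold lower, where 27.9% of all genes were. The median difference of the members was 1.91 in log2(TPM + 1), beside -0.37 over all genes. With COP1-siRNA, in the other pair of libraries, 26 of 46 members were higher (14% of all genes) and 8 were lower (26% of all genes), with a median of 1.45 beside -0.35. Of the 46 members tested with both siRNAs, 25 were 2-fold higher in Huh7 both times and 7 were 2-fold lower both times, against 12.8% and 23.6% of all genes. No member was 2-fold higher in one pair and 2-fold lower in the other, and only 1 of all 14695 genes tested with both siRNAs was. A list of this size would thus be likely to hold none. SERPINF2 was the single member whose difference changed sign, from 0.47 to -0.45. That is 2.17% of the 46 members, beside 7.07% of all genes. The 2 pairs share no library, but they come from the same 2 lines. The scale of the libraries moves these counts for all genes: under median-of-ratios scaling 19.1% of genes were higher and 20.8% lower with NC-siRNA, and 29 and 7 members.

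**Figure D2:**
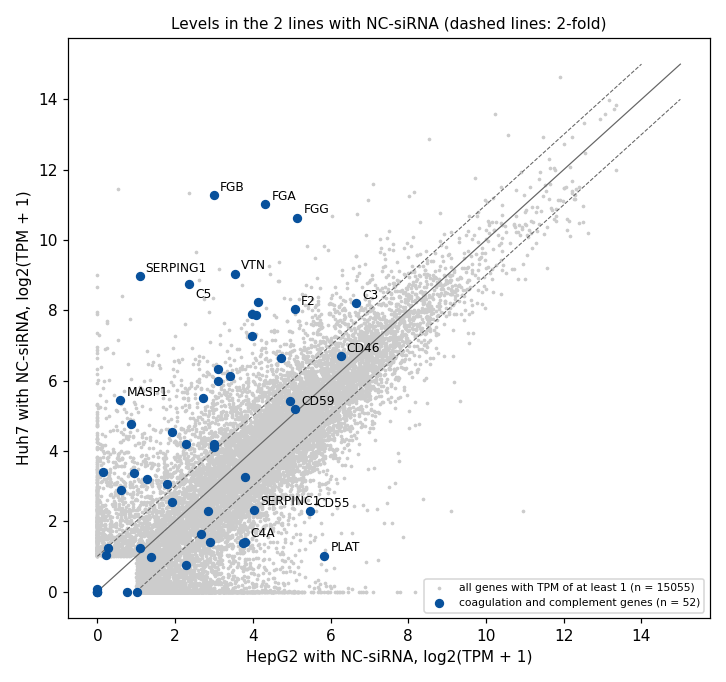
Each point is a gene, with its level in HepG2 with NC-siRNA on the horizontal and in Huh7 with NC-siRNA on the vertical axis, both as log2(TPM + 1), for all genes that reached 1 TPM in either library in grey and the 52 members in blue, and the dashed lines mark 2-fold. FGB, FGA, SERPING1 and C5 lie at the upper left, far above the dashed lines, and PLAT, CD55 and C4A lie below them.

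Fibrinogen, the precursor of the clot, is built of 3 chains whose genes lie next to each other on chromosome 4 (GRCh38, FGB at chr4:154562980-154572807, FGA at chr4:154583126-154590742 and FGG at chr4:154604134-154612808). The 300 bases around each start, from 250 before to 50 after it, are shown because these are the members that moved together in HepG2, with the start region of F3, the member that moved most in Huh7, for contrast. They are RefSeq sequences of GRCh38.p14, written in the direction of transcription, on the minus strand for FGA (chr4:154590693-154590992), FGG (chr4:154612607-154612906) and F3 (chr1:94541710-94542009) and on the plus strand for FGB (chr4:154562730-154563029). For FGA and FGB the start used is that of the deposited gene coordinates. For FGG and F3 it lies inside the deposited coordinates, so their positions are counted from a different start. Capitals mark matches, on either strand, to GTTAAT (an arm of the HNF1 palindrome), TTGCNNAA (C/EBP), CTGGGA (a core of acute-phase STAT3 elements), TGANTCA (AP-1), GGGCGG (the GC box) and TATAAA (the TATA box).
FGA: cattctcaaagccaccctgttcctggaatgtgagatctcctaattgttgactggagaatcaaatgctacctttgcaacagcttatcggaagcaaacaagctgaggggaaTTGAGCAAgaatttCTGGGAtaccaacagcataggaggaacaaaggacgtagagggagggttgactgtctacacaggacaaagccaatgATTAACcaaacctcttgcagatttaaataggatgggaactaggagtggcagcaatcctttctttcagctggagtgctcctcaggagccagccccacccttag
FGB: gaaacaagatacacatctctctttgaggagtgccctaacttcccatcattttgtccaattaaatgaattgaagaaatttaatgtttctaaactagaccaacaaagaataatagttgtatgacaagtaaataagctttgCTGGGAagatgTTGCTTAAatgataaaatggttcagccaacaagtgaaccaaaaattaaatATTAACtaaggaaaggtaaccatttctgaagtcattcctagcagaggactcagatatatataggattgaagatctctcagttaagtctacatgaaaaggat
FGG: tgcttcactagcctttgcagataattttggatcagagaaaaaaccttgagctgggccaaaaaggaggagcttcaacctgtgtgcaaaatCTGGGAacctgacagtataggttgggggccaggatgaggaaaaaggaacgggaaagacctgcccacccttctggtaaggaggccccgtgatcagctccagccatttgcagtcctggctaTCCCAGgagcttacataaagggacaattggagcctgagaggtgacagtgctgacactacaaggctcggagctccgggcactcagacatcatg
F3: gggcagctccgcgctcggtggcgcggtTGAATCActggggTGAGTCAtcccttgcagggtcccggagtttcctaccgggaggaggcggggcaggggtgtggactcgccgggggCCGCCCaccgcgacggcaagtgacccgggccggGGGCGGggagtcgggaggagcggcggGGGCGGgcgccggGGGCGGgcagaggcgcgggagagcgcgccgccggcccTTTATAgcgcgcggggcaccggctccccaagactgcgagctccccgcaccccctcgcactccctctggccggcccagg

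The start regions of FGA and FGB both held GTTAAT, on the reverse strand, at bases -52 and -51 from the start, and both held a C/EBP match and CTGGGA further upstream. FGG held CTGGGA at -161 and, reversed, at -42 from the start used for its region, but neither of the other matches there. F3 held none of these 3 motifs and had 2 AP-1 matches, at -223 and -210, 4 GC boxes and a reversed TATA box at -28. These F3 positions too are from the start used for its region and not from the deposited one. Start regions were available for 41 of the 52 members. Of these 41, 9 (22.0%) held GTTAAT, 10 (24.4%) a C/EBP match and 17 (41.5%) CTGGGA, where 6.89%, 10.6% and 33.4% of all 27305 regions of this length did. The GC box was in 7 (17.1%) of the members' regions and in 44.6% of all regions, and the TATA box in 3 (7.32%) and 12%. AP-1 matches were in 2 members, F3 and PLAUR, or 4.88% beside 7.76% of all regions. A match of letters describes the sequence and does not show that a factor binds there.

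The fibrinogen genes were the 3 most abundant members in Huh7 but not in HepG2. FGB, which encodes the beta chain, had a TPM of 2461 with NC-siRNA and 2403 with COP1-siRNA in Huh7, and 6.97 and 15.5 in HepG2. FGA, the alpha chain, had 2068 and 1934 in Huh7 and 19.0 and 41.5 in HepG2. FGG, the gamma chain, had 1577 and 1674 in Huh7 and 34.4 and 71.7 in HepG2. Every Huh7 value was thus far above every HepG2 value, and in HepG2 each chain stood higher with COP1-siRNA. By level, FGB was ranked 45 and 47 among all genes in the Huh7 libraries, but 9588 and 6964 in HepG2 with NC-siRNA and COP1-siRNA. The line difference with NC-siRNA was 8.27 for FGB, 6.69 for FGA and 5.48 for FGG in log2(TPM + 1), and with COP1-siRNA it was 7.18, 5.51 and 4.53.

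The order of the chains also differed between the lines. FGB held 40.3% and 40.0% of the fibrinogen TPM in Huh7 and 11.6% and 12.1% in HepG2, whereas FGG held 25.8% and 27.9% in Huh7 and 57.0% and 55.7% in HepG2. FGA held 31.5% to 33.9% in every library. Within a line, COP1-siRNA moved no chain's share by as much as the lines differed for FGB or FGG.

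In HepG2 the 3 fibrinogen genes rose with COP1-siRNA, and they were the only members past 2-fold among the 41 tested (0.54% of all 14456 genes tested were 2-fold higher, and 0.265% of the protein-coding ones). The change in log2(TPM + 1) was 1.09 for FGA, 1.05 for FGB and 1.04 for FGG, and the plain TPM ratios were 2.19, 2.23 and 2.08. All 3 lay just past the threshold. KNG1 had a larger plain ratio, 3.08, from a control level of 0.825 TPM. On the log2(TPM + 1) scale its change was 0.96, short of 2-fold. When FPKM replaced TPM, only FGA kept 2-fold, with FGB at 0.93 and FGG at 0.99. The HepG2 libraries had 2.31 and 2.34 TPM per FPKM, so the added 1 weighs more on FPKM. That alternative is thus mainly a change of pseudocount and not a separate measure. In Huh7, where the level of the 3 fibrinogen genes was far higher, the changes of FGA, FGB and FGG were -0.10, -0.03 and 0.09. No member was 2-fold lower in HepG2 (0.394% of all genes were).

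A further 5 members passed 1.5-fold in HepG2, which makes 8 with the fibrinogen genes, and 2.56% of all genes did. They were KNG1 (0.96), SERPINC1 (0.76), C1S (0.75), CFI (0.65) and CFB (0.62). None was 1.5-fold lower (1.87% of all genes were). Of the 41 members tested, 33 had a value above 0, beside 48.3% of all genes, and their median was 0.30 in log2(TPM + 1) beside -0.008 over all genes. Without the fibrinogen genes, a choice made after seeing the data, 30 of 38 were above 0 with a median of 0.28, and 0 were past 2-fold. The SD of the change over all genes in this pair of libraries was 0.28. The 8 hepatocyte markers had values on the same side, all above 0 in HepG2 (0.08 to 0.57, median 0.39), with 2 of 8 above 0 and a median of -0.09 in Huh7, and their part in the members' values was not tested. By counts, 30 of 36 secreted members were above 0 in HepG2 and 3 of 5 on the cell surface.

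**Figure D3:**
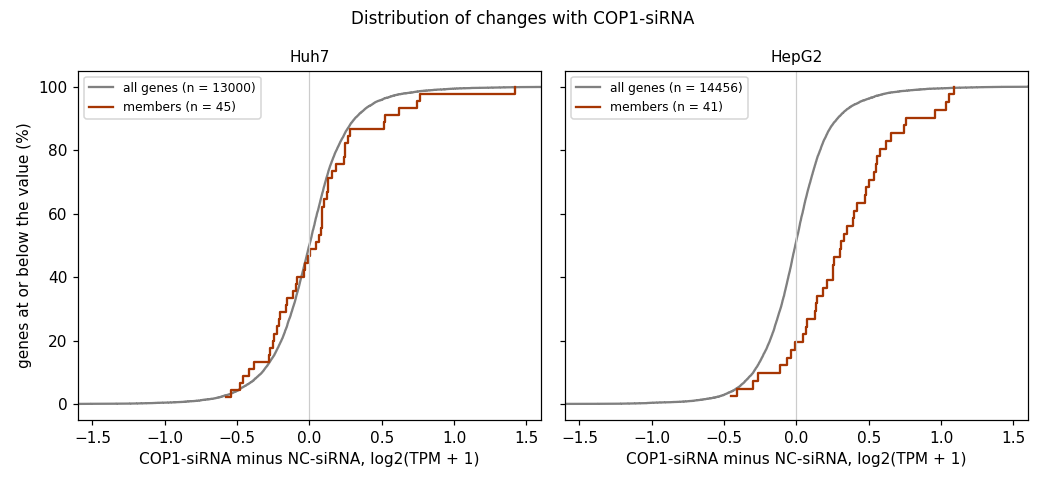
The curves give the share of genes, in percent, at or below each change with COP1-siRNA in log2(TPM + 1), for all genes tested in grey and the members tested in red, with Huh7 on the left and HepG2 on the right. In Huh7 the curves run close together, with medians of 0.04 for the members and -0.001 for all genes, and in HepG2 the curve of the members lies to the right, with medians of 0.30 and -0.008.

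In Huh7, F3 rose with COP1-siRNA and was the only member past 2-fold among the 45 tested (0.638% of all 13000 genes tested were 2-fold higher, and 0.249% of the protein-coding ones). F3 (chr1:94529173-94541857) encodes tissue factor, the membrane protein that binds factor VII and starts coagulation. Its TPM was 7.40 with NC-siRNA and 21.5 with COP1-siRNA in Huh7, and 2.47 and 2.32 in HepG2. The Huh7 library with COP1-siRNA thus stood above the other 3, 2.90 times the control of its line, and its change was 1.42 in log2(TPM + 1) beside -0.06 in HepG2. The deposited coverage, scaled for depth, gave 1.43 in Huh7. F7, the protease that tissue factor binds, had a TPM of 9.27 and 7.92 in Huh7 and 0.917 and 0.955 in HepG2, with a change of -0.20 in Huh7.

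With F3, 4 members passed 1.5-fold in Huh7, where 2.8% of all genes did. The others were PLAUR (0.77), F12 (0.75) and C4BPA (0.62). PLAUR, the receptor that holds urokinase at the cell surface, had a TPM of 1.67 and 3.54 in Huh7 and 6.47 and 8.97 in HepG2, but the scaled coverage gave 0.41 in Huh7, under 1.5-fold. No member was 2-fold or 1.5-fold lower in Huh7 (0.446% and 2.68% of all genes were). Of the 45 members, 24 were above 0, beside 49.9% of all genes, with a median of 0.04 beside -0.001. With a minimum TPM of 5 the median was -0.087.

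**Figure D4:**
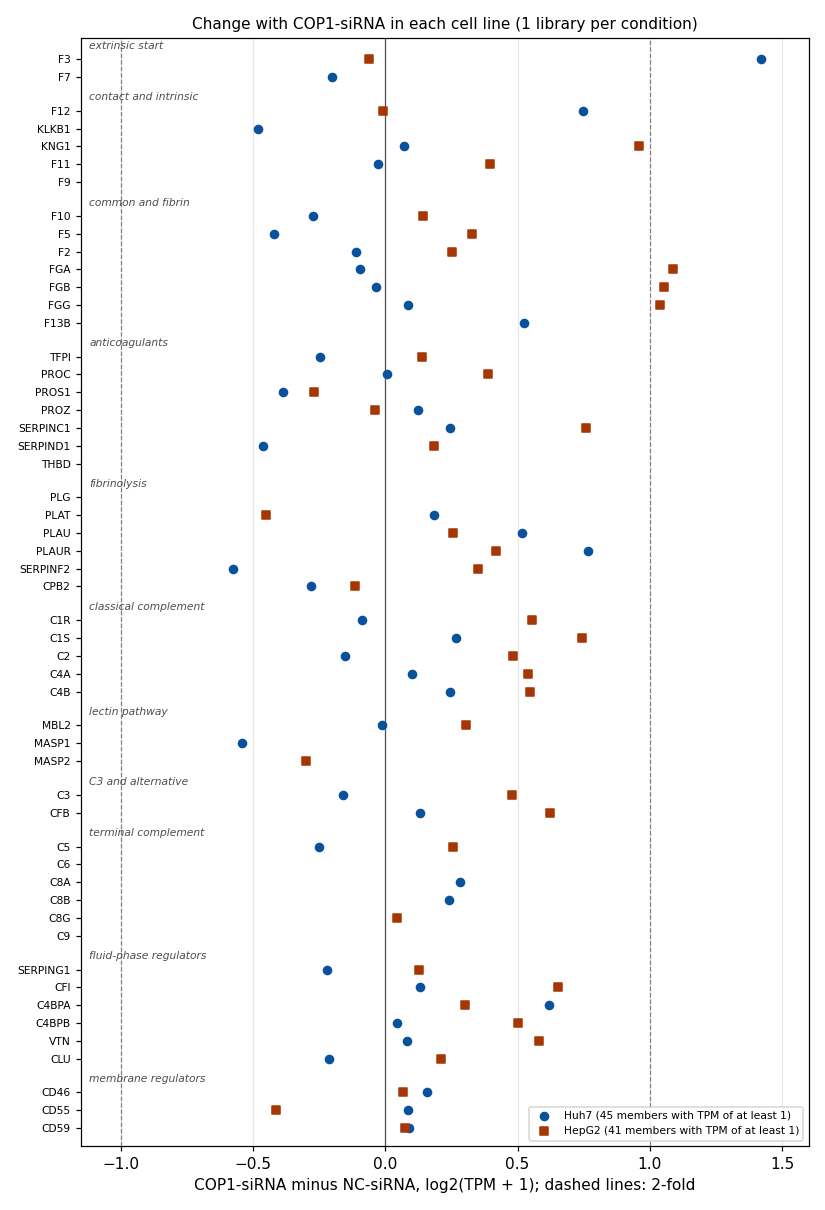
The change with COP1-siRNA in log2(TPM + 1) is plotted for each member tested, for Huh7 as circles (45 genes) and HepG2 as squares (41 genes), by role, with 1 library per condition and dashed lines at 2-fold. F3 in Huh7, at 1.42, and the fibrinogen genes in HepG2, at 1.04 to 1.09, lie beyond the right dashed line, and no member lies beyond the left one.

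The contact and intrinsic factors activate coagulation from within plasma. KNG1, which encodes the kininogens that carry prekallikrein and release bradykinin, was the most abundant of the 5. Its TPM was 26.4 and 27.7 in Huh7 and 0.825 and 2.55 in HepG2, so that the 2 Huh7 values were close and the HepG2 value with COP1-siRNA was above its control. The HepG2 change of 0.96 was 0.73 with scaled coverage and 1.52 with a pseudocount of 0.1, as a gene near 1 TPM depends on that choice. F12, the protease that starts the contact pathway, had 2.08 and 4.17 in Huh7 and 5.35 and 5.32 in HepG2. F11, which activates factor IX, had 4.86 and 4.75 in Huh7 and 2.79 and 3.98 in HepG2. KLKB1, plasma prekallikrein, was at most 1.06 in any library.

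In the common pathway, all 7 members were 2-fold higher in Huh7 than in HepG2 with either siRNA, beside 14.7% of all genes with NC-siRNA and 14% with COP1-siRNA. F2, prothrombin, had a TPM of 261 and 241 in Huh7 and 32.9 and 39.4 in HepG2, and F10, the protease that cuts it, had 44.0 and 36.2 against 5.61 and 6.30. F5, the cofactor of factor X, had 17.4 and 12.8 in Huh7 and 3.86 and 5.09 in HepG2. F13B, the carrier subunit of the enzyme that crosslinks fibrin, had 9.62 and 14.3 in Huh7 and 0.107 and 0.0864 in HepG2. In HepG2, the 6 members tested were all above 0 with COP1-siRNA, from 0.14 to 1.09. So were 33 of the 41 members on the whole list and 48.3% of all genes. In Huh7, 2 of the 7 common pathway genes were above 0, beside 49.9% of all genes.

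Among the anticoagulants, PROS1 was the most abundant. It encodes protein S, the cofactor of activated protein C, and its TPM was 234 and 179 in Huh7 and 15.8 and 13 in HepG2. It was thus lower with COP1-siRNA in both lines, by less than 1.5-fold, with changes of -0.39 and -0.27. TFPI, the inhibitor of the complex of tissue factor and factor VII, had 69.0 and 57.9 in Huh7 and 9.65 and 10.7 in HepG2. SERPIND1, heparin cofactor II, had 99.3 and 71.8 in Huh7 and 25.7 and 29.3 in HepG2. SERPINC1, antithrombin, the main plasma inhibitor of thrombin, went the other way between the lines, with 3.99 and 4.91 in Huh7 and 15.3 and 26.6 in HepG2. Its line difference was -1.71 with NC-siRNA and -2.22 with COP1-siRNA, and both HepG2 values lay above both Huh7 values. PROC, the precursor of activated protein C, had 16.4 and 16.5 in Huh7 and 7.01 and 9.49 in HepG2, and PROZ stayed between 1.08 and 1.57 in all libraries. PROZ and SERPIND1 each overlap a gene on the opposite strand, PCID2 and PI4KA, as SERPINC1, C2 and CLU do with ZBTB37, ZBTB12 and EPHX2. How shared reads were divided is not given in the sources used here.

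The fibrinolysis genes showed no common direction between the lines. PLAT, tissue plasminogen activator, which cuts plasminogen to plasmin, had the largest difference towards HepG2. Its TPM was 1.02 and 1.29 in Huh7 and 56.3 and 40.9 in HepG2, a difference of -4.83 with NC-siRNA and -4.19 with COP1-siRNA. CPB2, a carboxypeptidase that protects fibrin from plasmin, lay the other way, with 80.2 and 65.7 in Huh7 and 7.64 and 6.98 in HepG2. SERPINF2, the inhibitor of plasmin, had overlapping values, with 42.2 and 28 in Huh7 and 30.2 and 38.8 in HepG2. PLAU, urokinase, was between 0.969 and 2.08 in all libraries.

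In the classical pathway, C1R, C1S and C2 were higher in Huh7 and both C4 genes were higher in HepG2. C2, whose fragment forms the C3 convertase with C4b, had a TPM of 153 and 137 in Huh7 and 14.8 and 21.1 in HepG2. C1S and C1R, the proteases of the C1 complex, had 62.3 and 75.1 and 22.3 and 20.9 in Huh7. In HepG2, C1S had 7.63 and 13.5 and C1R had 2.81 and 4.61. C4A had 1.68 and 1.87 in Huh7 and 12.8 and 19.1 in HepG2, and C4B had 1.6 and 2.08 against 12.4 and 18.7. C4A and C4B are nearly identical copies whose reads are hard to assign, so their split is uncertain, while both lay higher in HepG2, with differences of -2.37 each with NC-siRNA and -2.81 and -2.67 with COP1-siRNA. With COP1-siRNA, all 5 classical genes were above 0 in HepG2, between 0.48 and 0.75, and C1S alone passed 1.5-fold. Across the whole list, 33 of 41 members were above 0 in HepG2, beside 48.3% of all genes. In Huh7, 3 of the 5 classical genes were above 0, beside 49.9% of all genes, with values between -0.15 and 0.27.

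In the lectin pathway, MASP1, a protease that circulates with mannose-binding lectin, had a TPM of 42.5 and 28.9 in Huh7 and 0.508 and 0.547 in HepG2, differences of 4.85 and 4.27. Its relative MASP2, the protease that cuts C4 and C2, had 0.687 and 0 in Huh7 and 3.87 and 2.96 in HepG2. MASP1 was thus higher in Huh7 and MASP2 higher in HepG2, though MASP2 overlaps TARDBP, an abundant gene on the opposite strand (108 to 156 TPM). MBL2, the lectin itself, had 8.19 and 8.12 in Huh7 and 1.43 and 2.0 in HepG2.

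C3, the protein on which all complement pathways converge, was the most abundant complement transcript in HepG2 and was high in both lines. Its TPM was 293 and 262 in Huh7 and 99.8 and 139 in HepG2, and its line difference was 1.54 with NC-siRNA and 0.90 with COP1-siRNA. CFB, the protease of the alternative pathway convertase, had 17.5 and 19.3 in Huh7 and 6.98 and 11.3 in HepG2. Both genes were 2-fold higher in Huh7 with NC-siRNA, and neither was with COP1-siRNA. The latter depended on the scaling of the libraries. With COP1-siRNA, median-of-ratios scaling gave 1.23 for C3 and 1.03 for CFB, and upper-quartile scaling gave 1.11 for C3.

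Of the terminal proteins, C5 was the only one abundant in Huh7. C5, whose cleavage starts the pore, had a TPM of 429 and 360 in Huh7 and 4.12 and 5.11 in HepG2, a difference of 6.39 with NC-siRNA and 5.88 with COP1-siRNA. Of the genes for the 3 subunits of C8, C8A had 6.39 and 7.98 in Huh7 and 0.528 and 0.708 in HepG2, and C8B had 1.38 and 1.81 against 0.201 and 0.136. C8G, the third, went the other way, with 0 and 0.11 in Huh7 and 1.02 and 1.09 in HepG2. C6 and C9, which extend the pore, did not exceed 0.180 TPM in any library.

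The fluid-phase regulators held 2 of the largest line differences. SERPING1, the inhibitor of C1 and of the contact proteases, had a TPM of 501 and 429 in Huh7 and 1.12 and 1.32 in HepG2, differences of 7.88 and 7.53. VTN, vitronectin, which blocks insertion of the pore and binds cells to matrix, had 527 and 558 in Huh7 and 10.7 and 16.4 in HepG2, differences of 5.50 and 5.00. For both genes the 2 Huh7 values were close and far above those of HepG2. CFI, the protease that cuts C3b and C4b, had 238 and 261 against 14.7 and 23.7, and CLU, clusterin, had 303 and 261 against 16.6 and 19.3. The subunits of C4b-binding protein were higher in HepG2 by less than 2-fold with NC-siRNA: C4BPA had 3.90 and 6.53 in Huh7 and 6.14 and 7.79 in HepG2, and C4BPB had 8.60 and 8.89 against 13 and 18.8. With COP1-siRNA all 6 of these regulators were above 0 in HepG2, between 0.13 and 0.65. On the whole list 33 of 41 members were, beside 48.3% of all genes.

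The 3 membrane regulators, which shield cells from complement, were either near the same level in both lines or higher in HepG2. CD46, a cofactor for cleavage of C3b, had a TPM of 102 and 114 in Huh7 and 75.4 and 79.2 in HepG2, and CD59, which blocks the pore, had 35.5 and 37.8 against 32.9 and 34.7. Both differed between lines by less than 1.5-fold. CD55, which speeds the decay of the convertases, had 3.88 and 4.18 in Huh7 and 43.3 and 32.2 in HepG2, differences of -3.18 and -2.68. Summed over the 6 cell-surface members, the TPM was 151 and 181 in Huh7 and 161 and 158 in HepG2, while the sum of the 46 secreted members was 18.8 times as high in Huh7 with NC-siRNA and 13.2 times with COP1-siRNA.

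No member passed 1.5-fold with COP1-siRNA in the same direction in both lines. Over all genes, 2.8% were 1.5-fold higher in Huh7 and 2.56% in HepG2, and 2.68% and 1.87% were lower. The share of all genes past 1.5-fold in both lines was not computed, so this count is not read as a trait of the members. Of 39 members tested in both lines, 16 were above 0 in both (29.2% of all genes), 2 were below 0 in both (31.0%), 16 were above 0 in HepG2 and below 0 in Huh7 (19.8%), and 5 the reverse (20.0%). With its sign kept, the change was higher in HepG2 than in Huh7 for 29 of the 39, beside 51.1% of the 11970 genes tested in both lines. This count includes members that were below 0 in Huh7 and says nothing of the size of the change. The lines had different levels of COP1 left, so a difference between lines and a difference in the depth of the knockdown cannot be told apart.

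Among 49 related genes listed for the same systems (receptors, cofactors, processing enzymes and further inhibitors), 27 were tested in Huh7 and 26 in HepG2. None passed 2-fold with COP1-siRNA in either line. Of all genes, 0.638% in Huh7 and 0.54% in HepG2 were 2-fold higher, and 0.446% and 0.394% lower, so a list of this size need hold none. The medians of the related genes were -0.01 and 0.13 in log2(TPM + 1). Past 1.5-fold were 1 of 27 in Huh7, downward (2.68% of all genes), and 3 of 26 in HepG2, upward (11.5%, beside 2.56% of all genes). None passed it the other way. They included MCFD2 in Huh7 and THBS1 and SERPINA10 in HepG2, chosen for naming after their values were seen. MCFD2, which helps carry factors V and VIII out of the endoplasmic reticulum, had a TPM of 109 and 63.8 in Huh7, a change of -0.76. In HepG2 the change was 0.85 for THBS1 (thrombospondin 1) and 0.79 for SERPINA10 (the protein Z-dependent protease inhibitor). Between the lines, 11 of 29 related genes (37.9%) were 2-fold higher in Huh7 with NC-siRNA, beside 14.7% of all genes, and 7 (24.1%) were lower, close to the 27.9% of all genes.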

How the data were processed

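Poly(A) RNA of the 4 transfections was sequenced as stranded libraries. The submitters' processing notes name FastQC 0.11.7, Trimmomatic 0.38, HISAT2 2.1.0, StringTie 2.1.3b, edgeR and GRCh38, and the annotation is not given in the sources used here. The authors deposited 1 gene table per library. The deposited TPM is normalized within a library for length and sums to the same total in each. The deposited FPKM is proportional to it. The deposited coverage is the mean read depth over a gene, not normalized, and was scaled here to a common median over genes with a TPM of at least 5. No read counts were used, so the precision of a single value is unknown.

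Members and lists were chosen with earlier results of these data known. The gene name column of the tables held no names, so the 52 members were matched by NCBI gene number through RefSeq (GRCh38.p14). Of these, 35 had the same lower coordinate there. For genes on the minus strand that coordinate is the far end and not the start of transcription. TPM was summed per gene number. Differences were taken in log2(TPM + 1), with a minimum TPM of 1 and a threshold of 2-fold, within each line and between lines for each siRNA. The genes described in full were members past 2-fold with COP1-siRNA, or past 1.5-fold alike in both lines, the most abundant member of each role, and the 5 with the largest line difference in each direction with NC-siRNA. Other members are given by values. The values of 1 gene on the list of related genes are not reported here. Start regions came from RefSeq and 11 members had none. Alternatives were another pseudocount, FPKM, coverage, 2 other scalings, other TPM minima, a 1.5-fold threshold and C4A and C4B summed. The scripts were tested on simulated data. Python 3.11.15, numpy 2.4.6, pandas 2.3.3 and matplotlib 3.10.9 were used.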

Additional observations from a re-analysis of the deposited data

Results flagged for a closer look

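With COP1-siRNA, 11 of 39 members tested in both lines had changes of opposite sign at least 1.5-fold apart, a limit added here. The share of all genes that met this limit was not computed, so the count is not read as a trait of the members. By sign alone, 19.8% of all genes were above 0 in HepG2 and below 0 in Huh7, and 20.0% the reverse. With 1 library per condition, none of the 11 differences was tested. In log2(TPM + 1), the Huh7 change minus the HepG2 change was 1.48 for F3, 0.75 for F12 and 0.64 for PLAT, which had values above 0 in Huh7 and below 0 in HepG2. It was -1.18 for FGA, -1.09 for FGB, -0.92 for SERPINF2, -0.75 for F5 and -0.65 for SERPIND1, which had values below 0 in Huh7 and above 0 in HepG2. The complement genes C1R, C2 and C3 had the same pattern, with -0.64 each. For F12 in HepG2 (-0.01) and FGB in Huh7 (-0.03) a sign so near 0 carries little information.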

How the results depend on the processing

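Each value rests on 1 library per condition, so no replicate could be left out and no spread between replicates is known. No paired analysis was possible because the labels carry no replicate numbers and each condition has a single library. The number of members past 2-fold with COP1-siRNA in Huh7, 1 as reported, was 3 with a pseudocount of 0.1 (F3, PLAUR and, downward, KLKB1). With that pseudocount 1.92% of all genes were higher and 1.08% lower. At 1.5-fold the count in Huh7 was 4 (2.8% of all genes were higher). In HepG2, 3 as reported, the count was 4 with a pseudocount of 0.1, which added KNG1 (1.57% of all genes were higher). It was 1 with FPKM (0.145%), 8 at 1.5-fold (2.56%) and 0 without the fibrinogen genes. FPKM values are smaller than TPM, so the added 1 weighs more on them. The median in Huh7 turned to -0.087 with a minimum TPM of 5. The median in HepG2 stayed above 0 under every alternative. The median line difference with NC-siRNA was 2.15 with a pseudocount of 0.1, 1.44 with FPKM, 1.81 with coverage, 2.17 with median-of-ratios scaling, 2.08 with upper-quartile scaling, 1.24 with no minimum TPM, 2.35 with a minimum of 5 and 1.41 without the fibrinogen genes. With COP1-siRNA, in the same order but without coverage, it was 2.06, 1.24, 1.72, 1.62, 1.04, 2.26 and 1.27, and 1.6 with C4A and C4B summed. The median of all genes in the NC-siRNA line comparison moved from -0.37 to -0.06 and -0.17 under the 2 other scalings, and the members' median stayed 2.23 to 2.28 above it.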
